A study of Drosophila melanogaster with 7 samples.

Results

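The comparison described here sets midguts of Drosophila melanogaster kept at 10% oxygen against midguts kept at 20% oxygen, matched by batch. The libraries were chosen by their titles and comprise 6 of the 7 libraries of the series: replicates 1 and 2 of batch 1 and replicate 3 of batch 2 in each group. The single library at 40% oxygen took no part. All flies were virgin females, and the strain label is sg-Gal4,UAS-GFP, so both groups carry the same GAL4 driver and green fluorescent reporter, and they differ by the oxygen in the cabinet, called hypoxia at 10% and normoxia at 20%. RNA of dissected guts was taken at day 53 and sequenced as strand-specific mRNA libraries. Whether replicates were separate animals or cultures is not in the labels, and the p-values therefore cover only the variation among these libraries, which could be technical. The midgut is a mix of cell types, and in such bulk RNA fewer cells of a type and less RNA per cell cannot be told apart.

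The fly midgut is lined by enterocytes, which digest and absorb food, and by hormone-secreting enteroendocrine cells, and both are replaced from intestinal stem cells. A chitin and mucus sheet, the peritrophic matrix, separates the food from these cells. Oxygen is the last electron acceptor of the mitochondrial respiratory chain, which is fed by the TCA cycle. In animals, the supply of oxygen is also read by prolyl hydroxylases that mark the transcription factor HIF-1 alpha, called Sima in flies, for destruction when oxygen is plentiful, a control that acts mainly on the protein and not on its transcript.

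Total counts were 19.22 to 22.22 M per library (M stands for mega). The batches stood apart more than the oxygen groups did: RNA of the mitochondrial genome took 4.10% to 4.68% of counts in batch 1 and 61.0% and 64.0% in the 10% and 20% library of batch 2, which left 7.49 and 7.0 M other counts there. Levels below are CPM (counts per M counts) after TMM scaling, a correction for library composition that leaves the mitochondrial genome's high share visible and raises other levels in batch 2. The 19 tested muscle genes summed to 1150 and 1155 CPM at 10% and 1542 and 1344 CPM at 20% in batch 1, against 18130 and 15920 CPM in batch 2. Replicate 2 at 10% was low in transcripts of neighbouring organs and replicate 2 at 20% was high in germline transcripts, with values given beside the results they touch. Of the markers of midgut cells, esg was at 10.5 to 16.7 CPM, nub at 43.2 to 62.5 CPM and the enterocyte gene Myo31DF at 102 to 218 CPM in the 6 libraries.

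No gene passed the test. edgeR's quasi-likelihood test with batch as a covariate called 0 of 9278 features (0%) at a Benjamini-Hochberg adjusted p below 0.05. The lowest adjusted p was 0.114, and 584 features (6.29%) had an unadjusted p below 0.05, 358 of them higher (3.86%) and 226 lower (2.44%) at 10%. DESeq2 called 124 (1.34%), of which 98 were higher (1.06%) and 26 lower (0.28%), and limma voom called 1. The median log2 fold change over all features was 0.01, with 52.1% above 0 and 47.9% below. The median half-width of a 95% interval was 0.35 on the log2 scale, and 0.24 for the 4985 features at a mean of at least 10 CPM, with single genes on either side of these medians. A second, descriptive measure was used as well: a gene stands apart when every 10% library lies above, or every one below, all 20% libraries of its own batch. By that measure 1095 features were higher (11.8%) and 813 lower (8.76%).

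The genes nearest to a call on the higher side differed by more than those on the lower side. Genes named here on either side were chosen among those that stand apart, so their place beside their batch partners was fixed by the choice. Among the 15 with the smallest p, log2 fold changes ran from 0.56 to 1.68 with edgeR adjusted p from 0.114 to 0.423. DESeq2 called all 15, but it was fitted to the same counts that chose them, so its calls are not separate support. They are a tyrosine hydroxylase (ple), a mucin (Muc68D), an enzyme that starts mucin-type sugar chains (Pgant4), a chitinase-family gene (Cht8), a chitin deacetylase-like gene (Cda9), a metallothionein (MtnD), a multicopper oxidase (Mco1), a carboxypeptidase (CG3097), the transporter genes snu and CG11147, the secreted carrier gene to (takeout), and nahoda, CG34324, CG11672 and CG3906.

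Muc68D encodes a gut mucin (chromosome 3L, 11767299 to 11772157, in the BDGP6.54 annotation). It was at 858, 910 and 99.8 CPM in replicates 1, 2 and 3 at 10% and at 396, 305 and 32.4 CPM at 20%. All 3 libraries at 10% lay above their batch partners, and the level in batch 2 was lower in both groups. On the log2 scale it was 1.43 higher (SE 0.13, n = 3 and 3, edgeR adjusted p = 0.144). Pgant4 is a GalNAc transferase, the kind of enzyme that adds the first sugar of mucin chains (2L, 3472603 to 3475338). Its levels were 56.5, 55.2 and 10.5 CPM at 10% against 22.7, 19.4 and 2.37 CPM at 20%. It too was higher in each library, by 1.41 in batch 1 and 2.11 in batch 2 on the log2 scale. Cht8, a gene of the chitinase family, was at 68.7, 75.8 and 5.61 CPM against 32.6, 23.9 and 2.27 CPM, or 1.34 higher on the log2 scale (SE 0.14, edgeR adjusted p = 0.152).

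ple encodes tyrosine hydroxylase, the first enzyme from tyrosine to dopamine and to the pigments of cuticle. It was at 35.5, 36.7 and 12.6 CPM at 10% and at 14.3, 16.8 and 5.12 CPM at 20%. The groups did not overlap within a batch, and batch 1 and batch 2 gave nearly the same difference, 1.22 and 1.28 on the log2 scale. CG34324 had the highest TPM of the 15 and was at 1388, 1476 and 252 CPM against 663, 590 and 77.1 CPM. MtnD, a metal-binding metallothionein, showed the opposite dependence on batch, with 11.8, 13.7 and 41.4 CPM against 7.79, 8.001 and 25.4 CPM. Its log2 fold change was 0.69 in batch 1 and 0.70 in batch 2. snu, an ABC transporter known for the barrier of the outer cuticle, was likewise at 22.1, 20.5 and 67.1 CPM against 14.1, 14.8 and 45.4 CPM.

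On the lower side the differences were smaller and the tests further from a call. Again only genes that stand apart were chosen, on both sides without those that overlap a gene on their strand. The 15 with the smallest p had log2 fold changes from -1.23 to -0.25 and edgeR adjusted p from 0.423 to 0.646. DESeq2, fitted to the same counts, called 9 of them. Gabat, the transaminase that breaks down the transmitter GABA (3L, 19997714 to 20000686), was at 83.7, 57.2 and 44.2 CPM at 10% and at 116, 129 and 92.4 CPM at 20%. Every 10% library was below its batch partners, replicate 1 by the least, and edgeR's log2 value was -0.88 (SE 0.17, edgeR adjusted p = 0.509). The other 8 members of the GABA and glutamate list lay between -0.15 and 0.16, with Gs2, a glutamine synthetase, at 0.02.

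Both small subunits of the Sec61 channel, through which secreted proteins enter the endoplasmic reticulum, were among the 15. Sec61beta was at 122, 127 and 98.8 CPM against 149, 145 and 120 CPM, and Sec61gamma at 66.8, 67.2 and 56.2 CPM against 85.1, 81.0 and 66.3 CPM. Each lay below its batch partners in all libraries, with log2 fold changes of -0.25 and -0.29. The small heat shock gene Hsp26 was at 5.72, 3.76 and 4.78 CPM against 9.26, 8.50 and 7.19 CPM, and Lgr1, a receptor of glycoprotein hormones, at 1.14, 0.74 and 3.33 CPM against 3.11, 1.97 and 5.91 CPM. Both were below their batch partners in every library, at -0.81 (SE 0.20) and -1.23 (SE 0.30). The others were CG5214, ND-B16.6, CG15093, an enzyme of valine breakdown (-0.57), CG12896, a peroxiredoxin-family gene (-0.43), the zinc finger gene chn (-0.71), Phyhd1 (-0.41), CG7458, CG9396, CG10208 and CG11562.

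**Figure D1:**
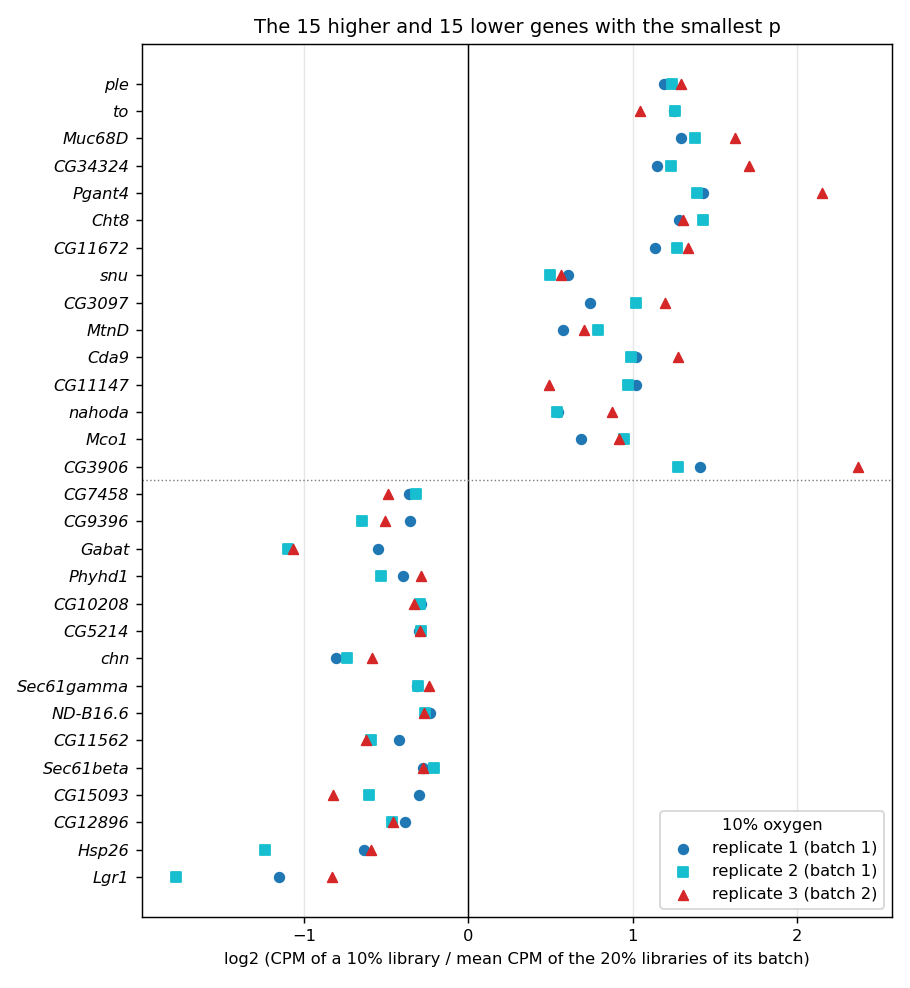
Each row is 1 of the 15 higher or 15 lower genes with the smallest p, and each symbol is 1 library at 10% oxygen, placed at the log2 ratio of its CPM to the mean CPM of the 20% libraries of its batch. All symbols of the higher genes lie right of 0 and all symbols of the lower genes left of it, which the choice of genes required, while Gabat, CG11147 and CG3906 show how far libraries of 1 gene can differ.

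The plot of single libraries shows how even the differences were for genes such as CG5214 and ND-B16.6. By the same rule 9 further genes would have been among them but share a strand with an overlapping gene, so their counts may be split: CG31077, wat, CG43394, Cyp4aa1, NijC, Mocs2B and CG34220 on the higher side and CG17159 and CG7950 on the lower.

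Nuclear genes of the mitochondria lay slightly lower at 10% oxygen as groups, with no gene called by edgeR. All 22 tested genes of the TCA cycle list had log2 fold changes below 0 (median -0.13), against 47.9% of all features. The list also holds enzymes beside the cycle or outside mitochondria, among them Pdha, Pdhb, muc, PCB, Men, Mdh1 and Idh. Of the nuclear genes of complex I, the entry of the respiratory chain, 30 of 34 were below 0 (median -0.14), and of complexes III to V with cytochrome c, 31 of 32 were (median -0.18). The mitochondrial ribosome, which makes the proteins of the mitochondrial genome, had 64 of 73 below 0 (median -0.13). The 85 tested proteins of the cytoplasmic ribosome had 51 below 0 and a median of -0.02, and the 14 glycolysis genes 9 below 0 and a median of -0.04. The genes of a group share libraries and scaling and are not independent, so these counts are descriptions.

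In the TCA cycle, SdhB, the iron-sulphur subunit of succinate dehydrogenase, was at 82.7, 78.6 and 79.5 CPM at 10% and at 95.1, 90.9 and 90.3 CPM at 20%. Idh3a, a subunit of the NAD-dependent isocitrate dehydrogenase, was at 173, 170 and 112 CPM against 188, 198 and 133 CPM. Both were lower in every library of their batch, each at -0.20 on the log2 scale (SE 0.06, edgeR adjusted p = 0.776). CG5214, the E2 subunit of the 2-oxoglutarate dehydrogenase complex but not a member of the list, was at 97.4, 98.0 and 83.8 CPM against 119, 120 and 102 CPM. Its difference was -0.29 on the log2 scale in batch 1 and again in batch 2. Members that stood apart on the lower side numbered 13 of 22 in the TCA cycle, 21 of 34 in complex I, 22 of 32 in complexes III to V and 31 of 73 in the mitochondrial ribosome, against 8.76% of all features, with 0 on the higher side in each list. On the TPM scale these counts were 7, 22, 21 and 17, against 6.82% of all features.

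In complex I, ND-B16.6 was at 52.3, 51.3 and 86.4 CPM against 61.7, 61.4 and 104 CPM, and ND-ASHI at 52.3, 52.0 and 55.6 CPM against 60.7, 59.7 and 64.5 CPM. The log2 fold changes of these accessory subunits were -0.25 and -0.21 (SE 0.06 each), and DESeq2 called only the first of the list. Further along the chain, Cyt-c-p, the cytochrome c of most fly tissues, was at 222, 200 and 258 CPM against 271, 247 and 376 CPM. ATPsynB, a stalk subunit of ATP synthase, was at 231, 218 and 268 CPM against 263, 254 and 324 CPM. Both were below their partners in every library, at -0.38 and -0.23, and DESeq2 called both (edgeR adjusted p = 0.660 and 0.744). Single members departed from the group: ND-MLRQ was at 0.06 and ND-51L1 at 0.48. In the mitochondrial ribosome mRpL19 was at -0.42 (SE 0.13) and mRpL51 at -0.32 (SE 0.11), while mRpS21 was at 0.02. The 12 tested proteins of the mitochondrial genome itself had a median of -0.01 in batch 1, with 6 below 0, and of -0.49 in the batch 2 pair. In that pair 11 of 12 were below 0, against 42.3% of all features. There mt:ND3 was at 4717 CPM against 7899 CPM, and mt:CoIII, the 1 member above 0, at 74070 CPM against 61650 CPM.

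By their medians the nuclear groups held their side in the separate batches. The medians in batch 1 and batch 2 were -0.14 and -0.14 for the TCA cycle, -0.19 and -0.06 for complex I, -0.19 and -0.12 for complexes III to V, and -0.11 and -0.21 for the mitochondrial ribosome. In the batch 2 pair 19 of 22, 22 of 34, 25 of 32 and 55 of 73 genes were below 0, against 42.3% of all features. The summed level of the complex I genes went the other way in that pair, at 8995 CPM at 10% against 8022 CPM at 20%. Sums of the other nuclear groups were lower at 10% there. Muscle, a tissue rich in mitochondria, lay lower in batch 1 too: its 19 tested genes had a median of -0.37 there, with 18 below 0, against 52.5% of all features. In batch 2 the muscle median was 0.23 with 2 of 19 below 0, while the TCA cycle median stayed at -0.14. In the 6 libraries together the muscle median was -0.17, and the part of muscle RNA in the batch 1 values was not tested. Without any 1 library the medians of the 4 nuclear groups stayed between -0.19 and -0.10.

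**Figure D2:**
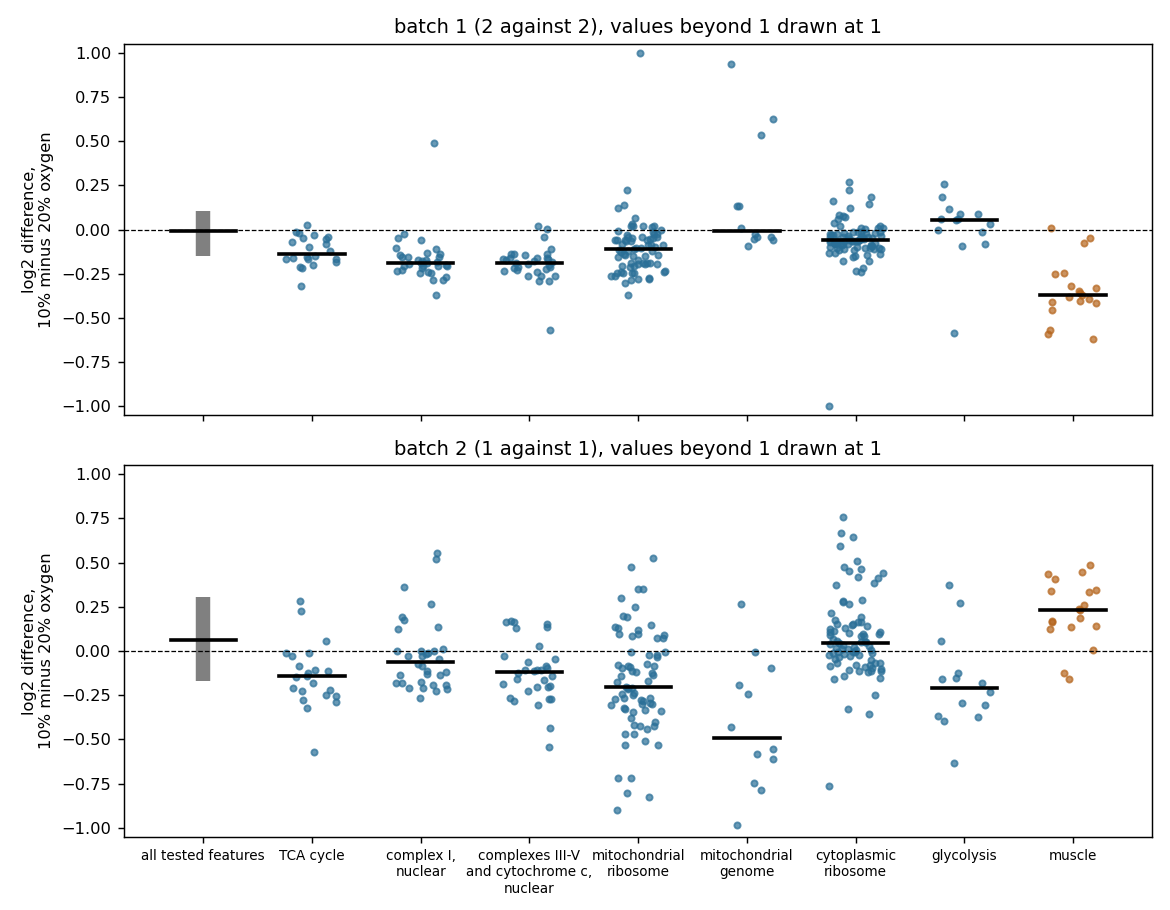
Points are genes of each list, placed at the log2 difference between 10% and 20% oxygen in batch 1 (upper panel) and in the batch 2 pair (lower panel), with black bars for medians and, for all tested features, a grey bar from the first to the last quartile; values beyond 1 are drawn at 1. The TCA cycle bar sits at -0.14 in both panels, whereas the bar of the muscle list moves from -0.37 to 0.23.

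Digestive enzymes and gut lining differed by class. Sugar-cleaving amylases and maltases had 12 of 14 members above 0 (median 0.38), and the lysosomal alpha-mannosidases 6 of 6 (median 0.40), against 52.1% of all features. The trypsins, of which 10 of 11 lay above 0, had a median of 0.12, and the Jonah proteases, with 14 of 16 below 0, one of -0.18. edgeR called 0 genes in each of these lists and DESeq2 called 0. Genes of these families have near copies, and the division of reads among them is uncertain.

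Mal-A6, a maltase gene, was at 1325, 1655 and 486 CPM at 10% and at 791, 897 and 451 CPM at 20%. Mal-A8 was at 335, 335 and 158 CPM against 162, 192 and 146 CPM. For both the higher level lay mostly in batch 1, with log2 differences of 0.82 and 0.92 there and of 0.11 and 0.12 in batch 2. The mannosidases had the reverse layout, with a median of 0.17 in batch 1 and 0.88 in batch 2: LManVI was at 3482, 4072 and 2777 CPM against 3278, 3919 and 1103 CPM. Without replicate 3 of either group the mannosidase median was 0.17. The trypsin median was -0.04 in batch 1 and 0.49 in batch 2, and the Jonah median -0.34 and 0.08, so neither protease class had a direction common to the batches. In the Jonah list 4 of 16 stood apart on the lower side, against 8.76% of all features. Jon66Ci was at 2.16, 1.16 and 8.42 CPM against 13.0, 9.78 and 9.76 CPM, and Jon99Fii at 4129, 3587 and 2308 CPM against 5595, 4747 and 2488 CPM. Both were below their batch partners in each library, by far more in batch 1 than in batch 2 for Jon66Ci (-2.77 and -0.21), with edgeR adjusted p = 0.776 and 0.782. Jon99Cii, the most abundant of the Jonah list per length, was at 23990, 20060 and 13120 CPM against 27930, 22100 and 13820 CPM.

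Genes of the mucus and chitin lining lay higher in part. Of 15 tested mucin and peritrophin genes 10 were above 0 (median 0.22) and 5 stood apart on the higher side, against 11.8% of all features. The 5 were Muc68D, Muc18B (1.32), Muc26B (0.90), Peritrophin-A (0.75) and Mur29B (0.18). Muc26B and Peritrophin-A reached at most 30 and 31 counts in a library. Muc11A (-1.12) and Muc68Ca (-0.65) had values below 0, and 8 of the 23 listed genes did not pass the filter on low counts. In the chitinase family 5 of 7 tested genes were above 0 (median 0.33). Cht5 was at 5.88, 5.59 and 0.416 CPM against 2.13, 1.78 and 0.394 CPM, a difference of 1.55 in batch 1, while batch 2 held 4 counts in each library. Cht9 was at 118, 80.9 and 114 CPM against 84.1, 81.5 and 82.3 CPM, overlapping in batch 1. The mucin median was 0.09 in batch 1 alone and 0.20 in batch 2. The 15 tested mucin and peritrophin genes summed to 2800, 1830 and 1691 CPM at 10% against 2129, 2157 and 2014 CPM at 20%. These sums overlapped in batch 1 and were lower at 10% in batch 2.

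Markers of differentiated midgut cells were mostly at or slightly above the 20% level, and progenitor markers showed no common direction. Among genes of enterocytes and of the acid-secreting copper cells, 8 of 9 were above 0 (median 0.21) and 5 stood apart on the higher side, against 52.1% and 11.8% of all features. dve, a homeobox gene of the middle midgut, was at 53.3, 56.7 and 13.1 CPM at 10% and at 40.3, 41.4 and 10.8 CPM at 20%. lab, the homeobox gene that specifies copper cells, was at 5.49, 6.01 and 1.98 CPM against 3.74, 4.63 and 1.18 CPM. Both were higher in each library, dve by 0.38 on the log2 scale (SE 0.07, edgeR adjusted p = 0.486) and lab with 0.53 (SE 0.16, adjusted p = 0.776 in the same test), and DESeq2 called dve. Vha100-4, a proton pump subunit of copper cells (0.30), Ptx1 (0.21) and GATAe (0.27) were the others that stood apart. Myo31DF (0.01), cad (0.01) and nub (-0.07) were close to 0.

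Enteroendocrine genes had 14 of 16 members above 0 (median 0.19), 5 of them apart on the higher side, against 52.1% and 11.8% of all features. CCHa2, a peptide hormone gene, was at 162, 195 and 173 CPM against 157, 157 and 129 CPM. IA-2, a secretory granule gene, was at 165, 181 and 85.0 CPM against 136, 128 and 81.7 CPM. Their log2 fold changes were 0.27 and 0.28, and the remaining 3 were sNPF (0.62), AstA (0.31) and Phm (0.15). The list's median was 0.16 in batch 1 and 0.04 in batch 2, where 6 of 16 were below 0. The neuronal list, which shares peptide secretion with these cells, had 5 tested genes with a median of 0.06, and elav, its defining gene, was at 1.81 to 6.75 CPM.

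For the 13 genes of stem and progenitor cells the median was 0.01, with 7 above 0. esg, the transcription factor that keeps progenitors undifferentiated, was at 14.1, 16.7 and 10.5 CPM at 10% and at 15.9, 12.2 and 12.9 CPM at 20%. Delta, the Notch ligand of stem cells, was at 3.496, 3.54 and 1.35 CPM against 2.79, 4.97 and 1.58 CPM. The groups overlapped for both, and the 95% intervals of the log2 fold change ran from -0.42 to 0.41 for esg and from -0.82 to 0.49 for Delta. Stat92E, the transcription factor of JAK-STAT signalling, had the highest TPM of the list and stood apart at 148, 164 and 133 CPM against 144, 133 and 109 CPM, with an interval from 0.00 to 0.41 (edgeR adjusted p = 0.782).

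**Figure D3:**
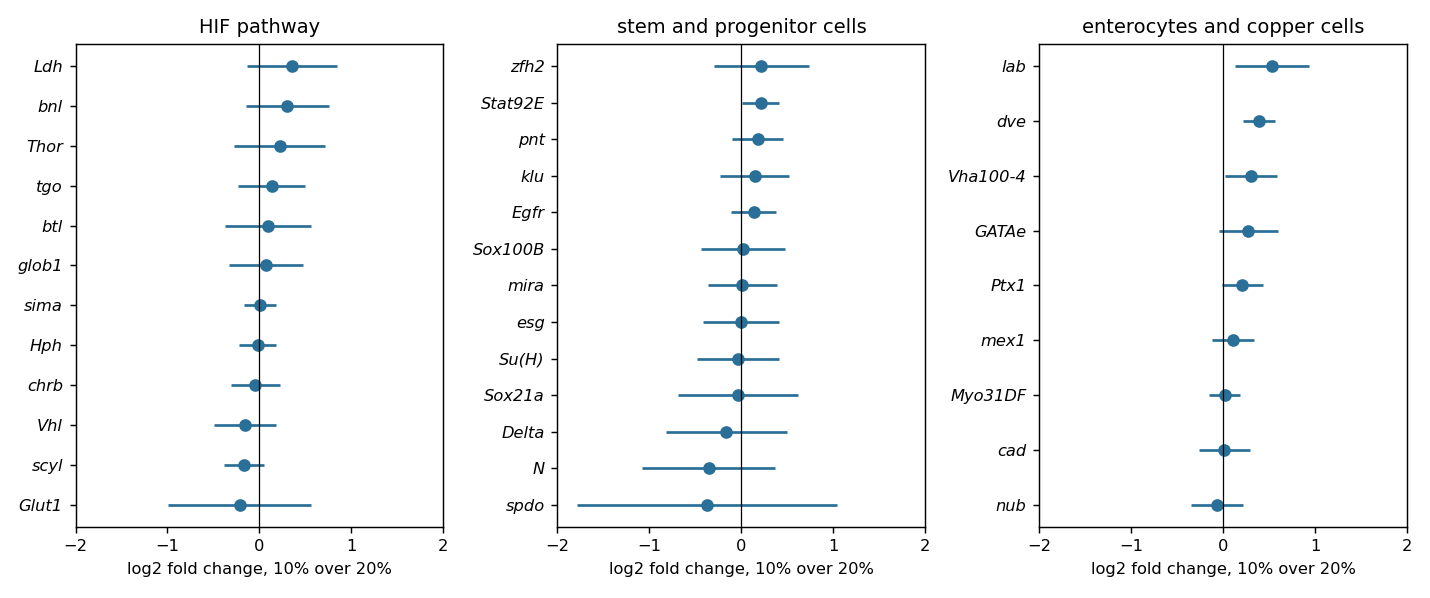
Points are edgeR log2 fold changes of 10% over 20% oxygen and lines their 95% intervals from 3 and 3 libraries, for the tested genes of the HIF pathway, of stem and progenitor cells and of enterocytes with copper cells. Intervals of all 12 HIF pathway genes cross 0, and those of lab, dve and Vha100-4 lie above it.

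No gene of the oxygen-sensing pathway was called, and the list was centred near 0. Of 12 tested genes 7 were above 0 (median 0.04), 0 stood apart on the higher side and 1, scyl, on the lower, against 11.8% and 8.76% of all features. sima, the HIF-1 alpha gene, was at 71.9, 75.3 and 36.4 CPM at 10% and at 72.3, 77.7 and 34.5 CPM at 20%. Its partner tgo was at 8.23, 9.26 and 13.6 CPM against 8.63, 9.22 and 9.76 CPM. The prolyl hydroxylase gene Hph was at 120, 126 and 104 CPM against 133, 131 and 94.1 CPM. The groups overlapped for sima and tgo in batch 1, Hph was lower in batch 1 and higher in batch 2, and the intervals ran from -0.17 to 0.18 for sima, -0.23 to 0.50 for tgo and -0.23 to 0.18 for Hph. sima, Hph, btl and Glut1 each overlap another annotated gene on the same strand, which may split their counts.

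Among known targets of the pathway, Ldh, lactate dehydrogenase, was at 91.7, 118 and 52.1 CPM against 68.5, 70.8 and 57.9 CPM. It was higher at 10% in batch 1 (0.59) and lower in batch 2 (-0.15), giving 0.35 with an interval from -0.14 to 0.84. bnl, the FGF that attracts tracheal branches, had the same layout, at 9.41, 9.04 and 4.78 CPM against 6.85, 6.06 and 5.42 CPM. The tracheal receptor btl for it was at 3.14, 4.21 and 31.1 CPM against 4.05, 3.88 and 22.3 CPM. The growth inhibitors scyl and chrb were at -0.17 and -0.05, the haemoglobin glob1 at 0.07, and Thor, the translation brake 4E-BP, at 0.22. The widest interval, that of the glucose transporter Glut1, ran from -0.99 to 0.57. In glycolysis, Hex-A, hexokinase, was at 90.8, 92.5 and 75.9 CPM against 86.5, 83.0 and 58.6 CPM, and Gapdh2 at 405, 455 and 367 CPM against 378, 381 and 409 CPM. The first stood apart (0.20) and the second did not (0.07).

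The list of dopamine and pigment synthesis, which holds ple itself, had 8 of 10 tested genes above 0, against 52.1% of all features. Its median was 0.42 over the 6 libraries, 0.38 in batch 1 and 0.16 in batch 2. Ddc, the decarboxylase that makes dopamine, was at 7.25, 7.30 and 3.95 CPM at 10% and at 4.12, 3.69 and 3.35 CPM at 20%. Pu, GTP cyclohydrolase, which starts the cofactor of tyrosine hydroxylase, was at 3.69, 2.99 and 3.12 CPM against 2.58, 1.78 and 1.18 CPM. Both stood apart, as did Hn, phenylalanine hydroxylase (0.86), and ple, which makes 4 of 10, against 11.8% of all features. However, ple was named above because it stands apart, and the list was chosen with earlier results of these data known. The share is therefore a description. Tdc1, the tyrosine decarboxylase of tyramine synthesis, stood apart on the lower side (-0.24), where 8.76% of all features did. The log2 fold changes of Ddc and Pu were 0.70 (SE 0.18, edgeR adjusted p = 0.676) and 0.83 (SE 0.27, adjusted p = 0.776 in the same test). Pu overlaps a tRNA gene on its strand. Vmat, the vesicle transporter of neurons that release these amines, was at 0.225 to 1.21 CPM and showed no separation. The list's median without 1 library ran from 0.17, without replicate 1 at 20%, to 0.37.

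The clock list was led by to, a gene under circadian control that binds small hydrophobic ligands and affects feeding. It was at 21.0, 21.1 and 4.47 CPM against 8.52, 9.16 and 2.17 CPM, or 1.20 higher on the log2 scale (SE 0.09, edgeR adjusted p = 0.114). The other 8 genes of the list lay between -0.19 for Clk and 0.24 for per. The oscillating genes per, tim and vri were at 0.03, 0.02 and -0.14 in batch 1 and at 0.74, 0.66 and 0.62 in the batch 2 pair of 1 library against 1. The difference of to was 1.26 in batch 1 and 1.01 in batch 2. Because to is also made outside the gut, the fat body list is given beside it: its 4 tested genes had a median of 0.73, and they summed to 52.3, 23.2 and 90.4 CPM at 10% against 17.9, 18.3 and 66.8 CPM at 20%, higher in each library. The lipoprotein gene apolpp was at 44.1, 17.8 and 75.2 CPM against 13.3, 14.47 and 57.5 CPM. The part of fat body RNA in the result for to was not tested. Without replicate 1 at 10% the fat body median was 0.35, and the lowest value of to without any 1 library was 1.15.

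Defence genes were divided. Antioxidant genes had 10 of 18 below 0 (median -0.11), with 7 apart on the lower side against 8.76% of all features. Keap1, the sensor that restrains the antioxidant factor Cnc, was at 27.4, 27.9 and 9.87 CPM at 10% and at 34.3, 33.9 and 10.7 CPM at 20%. Prx3, the mitochondrial peroxiredoxin, was at 34.7, 34.8 and 24.8 CPM against 37.2, 42.2 and 29.4 CPM. Sod2, the mitochondrial superoxide dismutase, was at -0.19 and also stood apart, whereas Sod1 (0.00) and Cat, catalase (0.09), did not. Of the antimicrobial peptide genes, Def was at 38.9, 46.6 and 196 CPM against 28.8, 17.4 and 91.7 CPM, and DptA at 102, 159 and 29.5 CPM against 89.4, 61.0 and 8.77 CPM. Both were higher in every library, with log2 fold changes of 0.96 and 1.08 (edgeR adjusted p = 0.573 and 0.737), and DESeq2 called both. The list as a whole had no common direction, with a median of 0.81 in batch 1 and -1.03 in batch 2, and Drs was at 4.48, 6.21 and 312 CPM against 140, 10.3 and 74.9 CPM.

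Genes of cell division lay lower, and so did transcripts of the germline. The cell cycle list had 26 of 32 genes below 0 (median -0.45) and 13 apart on the lower side, against 47.9% and 8.76% of all features. stg, the phosphatase that starts mitosis, was at 0.621, 0.322 and 0.312 CPM at 10% and at 1.29, 3.41 and 0.493 CPM at 20%, and Cdk1 at 0.915, 1.03 and 0.624 CPM against 1.29, 2.50 and 1.08 CPM. Each lay below its batch partners in every library, at -2.005 (SE 0.61) and -0.92 (SE 0.33), and the highest level was in replicate 2 at 20%. That library also held the most germline RNA. The batch 2 levels of stg rest on 3 and 5 counts. The 11 tested germline genes summed to 52.5, 7.91 and 21.8 CPM at 10% against 60.04, 175 and 21.97 CPM at 20%, and all 11 had values below 0 (median -2.05). Follicle cell and yolk genes had no such order: 5 of 8 were below 0 (median -0.55), 4 of 8 in batch 2, and they summed to 749, 231 and 2505 CPM at 10% against 690, 594 and 1388 CPM at 20%. Without replicate 2 at 20% the cell cycle median was -0.21 and the germline median -1.17. Mitotic genes are active in both the germline and gut stem cells, and the part of germline RNA in the cell cycle values was not tested. In the batch 2 pair the cell cycle median was -0.22 with 25 of 32 below 0, against 42.3% of all features. The germline sums there were 21.82 and 21.97 CPM, but the germline median was -0.63, with 8 of 11 below 0. The progenitor genes esg and Delta were at -0.00 and -0.16.

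In other neighbouring tissues the size of the differences depended on single libraries. The 10 genes of Malpighian tubules and hindgut summed to 405, 131 and 182 CPM at 10% and to 308, 413 and 346 CPM at 20%. Their median of -0.57 was -0.22 without replicate 2 at 10% and -1.42 without replicate 1. It was -0.56 in batch 1 and -0.61 in batch 2, with 9 of 10 below 0 in each, against 52.5% and 42.3% of all features. Uro, the defining gene of the tubules, was at 96.97, 9.33 and 54.5 CPM against 77.2, 144 and 112 CPM. Tracheal genes summed to 24.3, 23.4 and 200 CPM against 27.5, 19.0 and 168 CPM, and 5 of 8 were below 0 (median -0.05). Haemocyte genes had a median of -0.33 that lay at 0.18 on the TPM scale. It was -0.11 in batch 1 and -0.70 in batch 2.

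**Figure D4:**
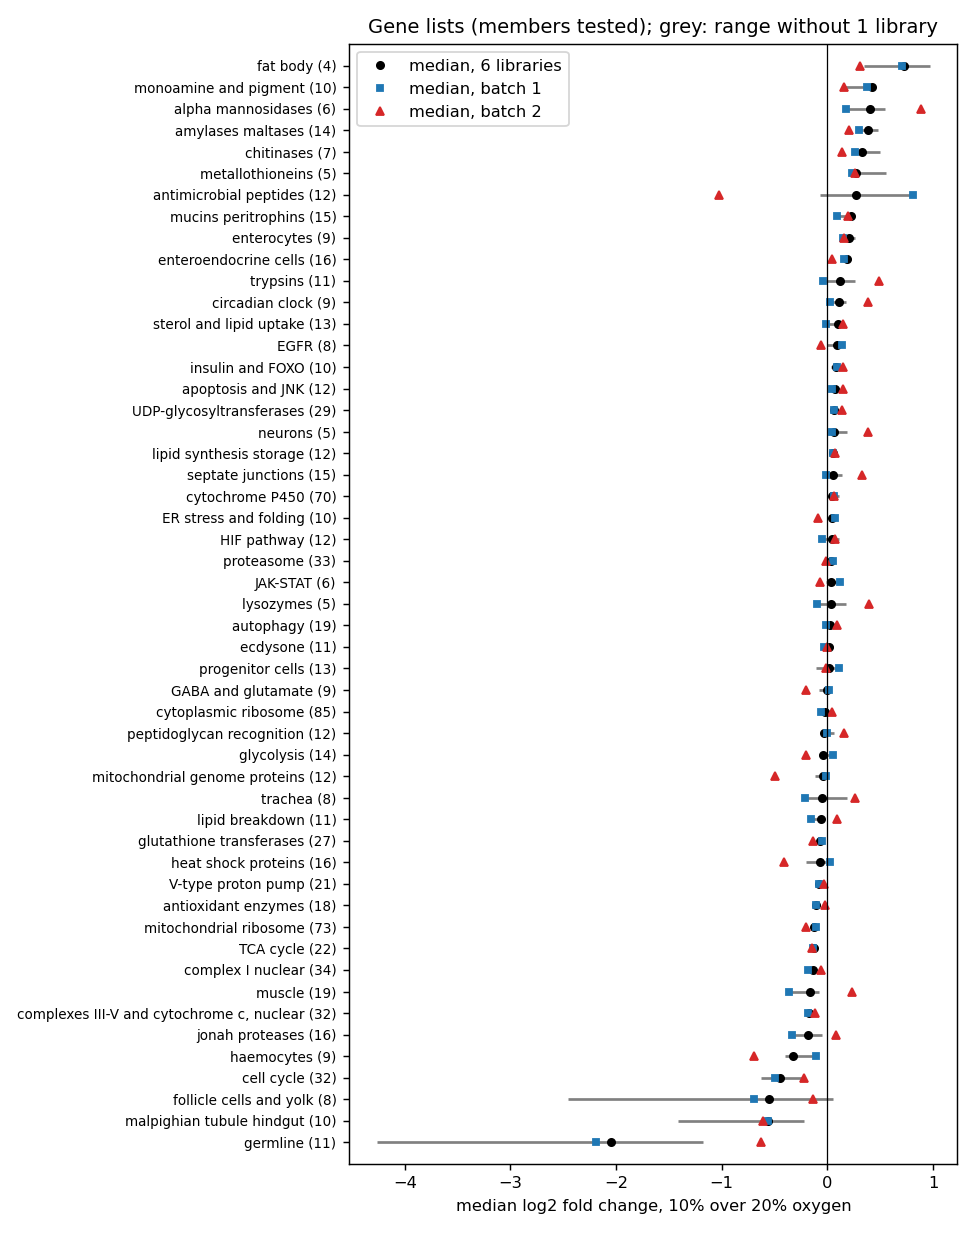
Each row is a gene list with the number of tested members, a black point for its median log2 fold change over the 6 libraries, a square for batch 1, a triangle for the batch 2 pair, and a grey line for the range of the median when 1 library is left out. Lists of mitochondrial genes have short lines left of 0, whereas germline, follicle cell and antimicrobial peptide lists have long lines.

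Batch 2 took no part in a ranking made in batch 1 alone, which allowed the higher and lower genes to be followed in separate libraries. Of the 100 features with the smallest p on the higher side in batch 1, 75 were also higher in the batch 2 pair, which is 75% (exact Clopper-Pearson 95% interval 65.3% to 83.1%, over features that are not independent), against 57.2% of all features. Their median difference was 1.00 in batch 1 and 0.50 in batch 2. They included the chitinase-family genes Cht4, Cht5 and Cht8, the mucin genes Muc68D and Muc68E, Mal-A6, Mal-A8, tobi, ple, Ddc and to. They also held 11 transposon insertions, most of them copies of copia that are alike in sequence. Of the 9278 tested features 258 were insertions. Of the 100 on the lower side 34 were also lower in batch 2, or 34% (24.8% to 44.2%), against 42.3% of all features, and their median went from -0.89 to 0.22. Those 100 held 7 muscle genes, among them Act57B, Mhc and sls.

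Across all 9278 features the differences of the separate batches had a Pearson r of -0.04 and a Spearman rho of 0.06, and over the 7550 features with at least 1 CPM in every library 0.16 and 0.08. Genes share libraries and depth and are not independent replicates, and 1 library a group gives batch 2 no error of its own. A test of the oxygen by batch interaction, in which the spread comes from batch 1, called 0 of 9278 features by edgeR's quasi-likelihood test, with 973 at an unadjusted p below 0.05, and 130 by DESeq2.

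**Figure D5:**
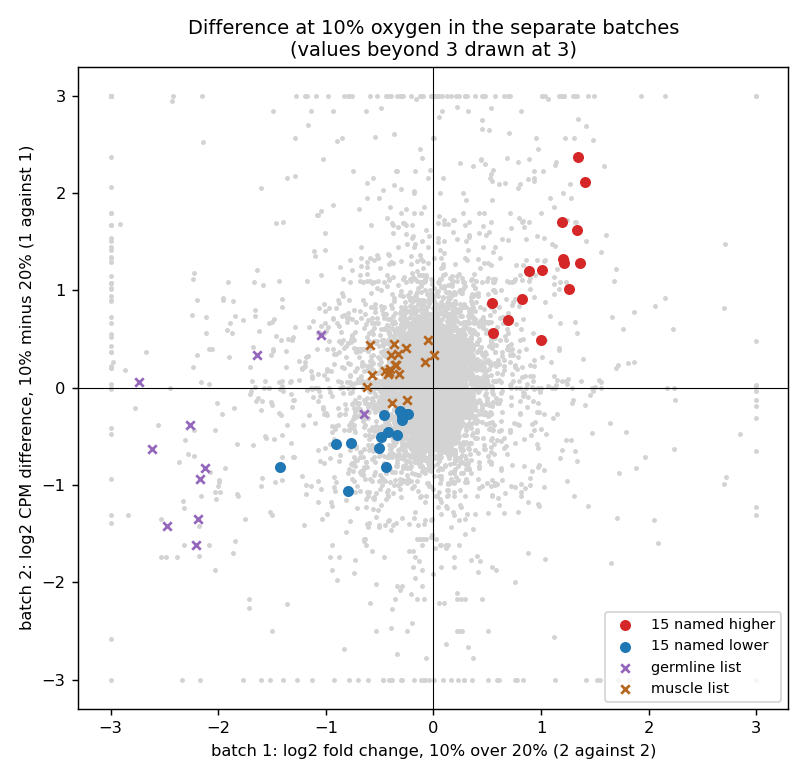
Grey points are the 9278 tested features, placed at the log2 fold change in batch 1 (2 against 2 libraries) and the log2 CPM difference in the batch 2 pair, with values beyond 3 drawn at 3. The named higher and lower genes lie in the upper right and lower left by the rule that chose them, the muscle genes lie left of or near 0 in batch 1 and mostly above 0 in batch 2, and no slope is visible in the cloud.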

How the data were processed

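RNA-seq of 6 midgut libraries was used. The authors deposited 1 table per library with expected counts (estimated reads per transcript, not necessarily whole) and TPM, per the file headers. Per the submitters' processing notes, STAR 2.7.11b and Salmon 1.10.3 were used. The genome build is not given in the sources used here, but all 41539 transcript lengths equal those of the Ensembl BDGP6.54 annotation, from which coordinates and overlaps were taken. Deposited expected counts were summed per gene of the deposited transcript table and rounded. Over 24204 features, a floor of 3 counts was 0.0938 to 0.105 CPM in batch 1 and 0.296 to 0.312 CPM in batch 2 on the TMM scale of the printed levels. Floors and the exact intervals of shares cover counting error only; the 95% intervals of log2 fold changes include the spread between libraries.

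Features were tested with edgeR 4.0.16 in R 4.3.3 by its quasi-likelihood test, after TMM scaling (factors 0.501 to 1.44), filterByExpr by oxygen group, batch as a covariate and Benjamini-Hochberg adjusted p below 0.05. Standard errors and 95% intervals follow from the test statistic. DESeq2 1.42.0, limma 3.58.1 on voom weights and on log2(TPM + 1) over features with a mean TPM of at least 1, other scalings and left-out libraries were alternatives. Tested on data simulated from these libraries (9098 features), the 140 calls of edgeR held 41 of the 100 genes set to a 2-fold change, 92 of the 100 set to 4-fold and 7 unchanged genes. The 192 calls of DESeq2 held 67, 93 and 32.

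The members, the 51 gene lists and the transposon insertions were chosen with earlier results of these data known, so lists are described by counts and medians and not tested. The genes named come from a set chosen by rule, and of its list members only a part is given in the text. The set held the 15 higher and 15 lower genes with the smallest p among those that stand apart within batches. These genes also have a mean of at least 1 CPM in each batch and overlap no gene on their strand. All tested members of the lists for the HIF pathway, progenitors, enterocytes, monoamines and the clock were in the set. Of other lists it held the 2 members with the smallest p and the one with the highest mean TPM. Other members named beside these were chosen after their values were seen. Same-numbered libraries share a batch in the labels, and their deviations from the group means correlated at 0.44, 0.447 and 0.739 for numbers 1, 2 and 3. Different numbers within batch 1 correlated at 0.441 and 0.527, and at -0.0534 once batch 1 means were removed, so the pairing comes from the batch, which is in the main test.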

Additional observations from a re-analysis of the deposited data

How the results depend on the processing

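Besides DESeq2 with 124 called genes and limma voom with 1, all other fits called 0 genes, as the main one did: RLE scaling, no filter on low counts, length offsets, the mitochondrial genome left out, no batch term, batch 1 alone, log2(TPM + 1) with limma, and each fit without 1 library (range 0 to 0). With the replicate number as a block in place of the batch, edgeR called 0 genes. For the interaction with batch DESeq2 called 130 where edgeR called 0. Genes ranked in batch 1 kept their sign in batch 2 in 74% and 71% on the higher side for the top 50 and 200, and in 36% and 31% on the lower side. Of the counts that stand apart, 1095 higher and 813 lower, the values in alternatives chosen after seeing the data were 1719 and 1326 without replicate 2 at 10%, 1874 and 1298 without replicate 2 at 20%, 1732 and 1903 in batch 1 alone, where fewer libraries make the criterion easier to meet, and 1018 and 633 on the TPM scale. Of list medians of at least 0.1 in size, that of trypsins lay at -0.04 in batch 1 alone, that of follicle cells and yolk at 0.05 without replicate 1 at 20%, that of muscle at 0.12 and that of antimicrobial peptides at -0.06 with no batch term, the latter also at -0.07 without replicate 2 at 20%, and that of haemocytes at 0.18 on the TPM scale; the cause was not tested. Depth limits batch 2 most, where 3 counts are 0.296 to 0.312 CPM on the scale of the printed levels.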

Other observations

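Transposon RNA differed by family, higher at 10% oxygen for some families and lower for others. Of 258 tested insertions 156 were above 0, where 52.1% of all features were. Copies of 1 family count separately here. Of these insertions 52 stood apart on the higher side and 12 on the lower, where 11.8% and 8.76% of all features did. edgeR called 0 insertions and DESeq2 19, where DESeq2 called 1.34% of all features. Copies of a family are alike in sequence, which makes the division of reads among them uncertain, and insertions were therefore also summed by family. None of the 74 tested families of 134 was called in a fit over 9100 features. The retrotransposon copia, with 39 insertions, was at 1615, 1459 and 3456 CPM at 10% and at 1124, 1131 and 2185 CPM at 20%. All 10% libraries were above their batch partners, at 0.52 on the log2 scale (SE 0.09, edgeR adjusted p = 0.531). mdg3 was at 20.3, 22.6 and 6.544 CPM against 11.8, 7.52 and 4.35 CPM (0.99), and roo at 37.6, 37.2 and 82.8 CPM against 28.8, 34.0 and 43.8 CPM (0.47). gypsy10 had the other direction in each library, at 1.54, 1.77 and 0.416 CPM against 3.24, 2.87 and 0.593 CPM (-0.82), and INE-1 was at -0.33.

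Values of the metabolic and signalling lists not described above follow. ACC, the enzyme that commits carbon to fatty acid synthesis, was at 112, 111 and 43.3 CPM against 81.6, 88.0 and 36.3 CPM, higher in each library (0.35, SE 0.07, edgeR adjusted p = 0.557) and called by DESeq2, while its list of lipid synthesis and storage had a median of 0.05 and lipid breakdown one of -0.06. All 10 tested insulin pathway genes were above 0 with a median of 0.09, led by mTor (0.25). Medians were 0.05 for P450 enzymes, where Cyp6a17 stood at 0.39, 0.06 for UDP-glycosyltransferases, where Ugt37B1 stood at -0.46, and -0.07 for glutathione transferases, where GstE3 stood at -0.47. They were 0.27 for metallothioneins, -0.07 for heat shock proteins, 0.04 for endoplasmic reticulum folding genes, 0.04 for the proteasome, 0.02 for autophagy, 0.08 for apoptosis and JNK, 0.09 for EGFR, 0.03 for JAK-STAT, 0.02 for ecdysone and -0.03 for peptidoglycan recognition. The 5 tested metallothioneins summed to 923, 954 and 9147 CPM at 10% against 1040, 1123 and 7415 CPM at 20%. These sums were lower at 10% in batch 1 and higher in batch 2. MtnA was among the 100 lower features with the smallest p in batch 1. Medians of gut function lists were 0.05 for septate junctions, 0.10 for sterol and lipid uptake, 0.03 for lysozymes and -0.08 for the V-type proton pump. The lysozyme gene LysP had 2, 2 and 157 counts at 10% against 234, 71 and 230 counts at 20%, below its batch partners in each library, and was called by DESeq2. Of the 21 tested pump genes 7 stood apart on the lower side and 2 on the higher, against 8.76% and 11.8% of all features. Vha13 was at 349, 398 and 393 CPM against 488.5, 424 and 399 CPM (-0.20), and Vha100-5 at 0.21. The median of follicle cell and yolk genes ranged from -2.46, without replicate 1 at 10%, to 0.05, without replicate 1 at 20%. The chorion gene Cp38 was at 41.1 CPM in replicate 2 at 20% and at 0.489 CPM in replicate 1.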
